A study of Homo sapiens with 18 samples.

Results

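The aminoacyl-tRNA synthetases examined here were 37 genes of the 63568 entries in the table of transcript levels, taken by symbol from GENCODE release 29. They comprised 21 enzymes of the cytosol and 16 of the mitochondrion. Mitochondrial enzymes were those whose symbol ends in 2, except TARSL2, a cytosolic threonyl enzyme. Of the cytosolic enzymes, 8 (DARS, EPRS, IARS, KARS, LARS, MARS, QARS and RARS) belong to the multisynthetase complex and 13 act outside it. GARS and KARS are counted as cytosolic, although each gene also encodes a mitochondrial form.

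The RNA came from HEK293, an established human embryonic kidney cell line. For the labelled libraries, cells were given 500 µM 4-thiouridine, a uridine analog that enters new transcripts. The labelled RNA was then tagged with biotin and drawn out on streptavidin. No labelling time or dose is recorded here for the total RNA libraries. There were 3 libraries for each labelling time of 7.5, 15, 30, 45 and 60 min, and 3 libraries of total RNA, for 18 in all. Total replicate 1 was selected for poly(A) with oligo-dT, while ribosomal RNA was removed with RNase H from replicate 2 and with Ribo-Zero from replicate 3, so that the SD of total RNA includes a difference of method. The labels do not tell whether the libraries of a group stem from separate cultures, and a p-value here covers the spread among these libraries alone, which may be technical.

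Each aminoacyl-tRNA synthetase joins an amino acid to the tRNAs that carry its anticodon, which is the step that fixes the genetic code. Human cells run this chemistry in the cytosol and again in the mitochondrion, in most cases with a separate nuclear gene for each compartment. In the cytosol several of the enzymes sit in the multisynthetase complex around the scaffold proteins AIMP1, AIMP2 and EEF1E1, and many of the cytosolic genes are known targets of ATF4, the transcription factor of the amino acid response.

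Every one of the 37 transcripts was above 0 in all 18 libraries. Levels are in TPM, a share of each library's transcripts corrected for transcript length, given for mature (spliced) and primary (unspliced, full-locus) RNA. TPM keep no depth, so the counting error of each value is unknown, and more RNA of a gene cannot be told apart from less RNA of the other genes in a library. Together the 37 genes held between 0.166% and 0.282% of all TPM in a library. The 45 min replicate 2 library had 15159 genes above 0, against 18318 to 20407 in the other labelled libraries and 22906 to 24470 in total RNA. Of the markers of the line, KRT8, KRT18 and VIM were present in every library, PAX2 was low (4.64 TPM at 60 min, 0.927 in total RNA) and LHX1 could not be matched to an entry. Among markers of other cells, PTPRC, CD3E, PECAM1, ALB and MYOD1 reached at most 0.32 TPM in any library, COL1A1 at most 5.78 TPM and HBA1 at most 18.8 TPM.

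The promoters of 30 of the 37 genes were found in RefSeq (GRCh38.p14), as the stretch from 250 bases before to 50 bases after the annotated start. DARS, LARS, TARSL2, VARS, YARS, AARS2 and VARS2 had no entry. The windows were searched on both strands for TGATGNAA, the form of the C/EBP-ATF response element through which ATF4 acts on amino acid response genes. A match stood in 6 of 16 cytosolic promoters (37.5%) and in 1 of 14 mitochondrial promoters (7.14%), against 1270 of 35116 promoters of all genes (3.62%). The 7 matches are shown in stretches of 30 bases, 5′ to 3′ on the gene's strand, because they are all the matches found in the 30 promoters. Capitals mark the 8-base match.
AARS: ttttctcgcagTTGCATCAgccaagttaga
CARS: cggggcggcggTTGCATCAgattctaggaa
IARS: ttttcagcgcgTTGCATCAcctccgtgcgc
MARS: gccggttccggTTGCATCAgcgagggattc
NARS: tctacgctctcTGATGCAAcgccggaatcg
TARS: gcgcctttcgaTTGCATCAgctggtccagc
YARS2: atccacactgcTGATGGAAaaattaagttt
The stretches lie at chr16:70289675-70289704 (AARS), chr11:3057407-3057436 (CARS), chr9:92293692-92293721 (IARS), chr12:57488053-57488082 (MARS), chr18:57621804-57621833 (NARS), chr5:33440956-33440985 (TARS) and chr12:32756076-32756105 (YARS2). MARS and TARS are on the plus strand and the other five on the minus strand. All 6 cytosolic promoters held the same 8 bases, as TGATGCAA in NARS and as its reverse complement TTGCATCA in the others, whereas YARS2 held TGATGGAA. The matches of CARS, IARS, MARS, NARS and TARS began between -13 and 14, counted from 0 at the annotated start, and those of AARS and YARS2 at -187 and -197. A match describes these letters and does not show that a factor binds there.

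The first comparison asked how the mature synthetase RNAs in the labelled pool differed between 7.5 and 60 min of labelling. Only 3 of the 37 passed the test, all of them mitochondrial: HARS2 and MARS2 rose and FARS2 fell. None of the 21 cytosolic genes passed in either direction. Among all 16739 genes tested with limma, 20.1% differed at 60 min, 15.8% being higher and 4.21% lower, at a Benjamini-Hochberg adjusted p under 0.05. The members called higher (2 of 37) and lower (1 of 37) are to be read against those shares. Within the mitochondrial class 3 of 16 genes passed, which is close to the 20.1% of all genes. The median log2 change was 0.14 in the cytosolic class and 0.16 in the mitochondrial class, and 0.24 over all genes tested. Median-ratio scaling moved the all-gene median to -0.049 and the class medians to -0.20 and -0.17, and called HARS2 higher and FARSB and FARS2 lower, where 7.74% and 7.81% of all genes were. Quantile normalization called the same 3 genes as the deposited values, where 9.02% of all genes were higher and 7.03% lower. At an unadjusted p under 0.05, TARS was the only cytosolic gene past the mark, in the upward direction.

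HARS2 encodes the mitochondrial histidyl-tRNA synthetase. Its mature level was 9.13, 10.1 and 19.3 TPM in the 7.5 min libraries and 48.3, 32.04 and 47.4 TPM in the 60 min libraries. The groups did not overlap, and the lowest 60 min library was above the highest 7.5 min library. Its log2 change on the log2(TPM + 1) scale was 1.70 (SE 0.334, adjusted p = 0.00221). HARS2 and HARS are close paralogs that lie head to head on chromosome 5 with overlapping first parts, and HARS2 also overlaps ZMAT2 on its own strand, so how reads were shared among these genes is uncertain. HARS itself stood at 47.8, 46.1 and 67.8 TPM at 7.5 min and 51.6, 57.5 and 64.5 TPM at 60 min, with groups that overlapped.

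MARS2, the mitochondrial methionyl enzyme, is an intronless gene of 3019 bases (GRCh38), so its deposited level sums mature and primary RNA. The gene overlaps AC011997.1 on its own strand, and the part of reads from AC011997.1 was not tested. MARS2 stood at 35.98, 21.7 and 22.2 TPM at 7.5 min and 77.9, 55.7 and 54.8 TPM at 60 min, without overlap. The log2 change was 1.23 (SE 0.250, adjusted p = 0.00293). Under median-ratio scaling of the libraries it no longer passed.

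FARS2 encodes the mitochondrial phenylalanyl enzyme and spans 568149 bases (GRCh38), the longest of the 37 genes. Its level went the other way, from 37.1, 46.2 and 46.4 TPM at 7.5 min to 9.92, 14.1 and 13.8 TPM at 60 min. All 3 libraries at 60 min were below all 3 at 7.5 min. Its log2 change was -1.71 (SE 0.299, adjusted p = 0.00098), and its primary transcript fell as well (log2 change -2.46 (SE 0.550, adjusted p = 0.00201)). Sequencing was strand-specific, but no source used here states whether counting used strand, and 22 of the 37 genes overlap a gene on the opposite strand, FARS2 among them.

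**Figure D1:**
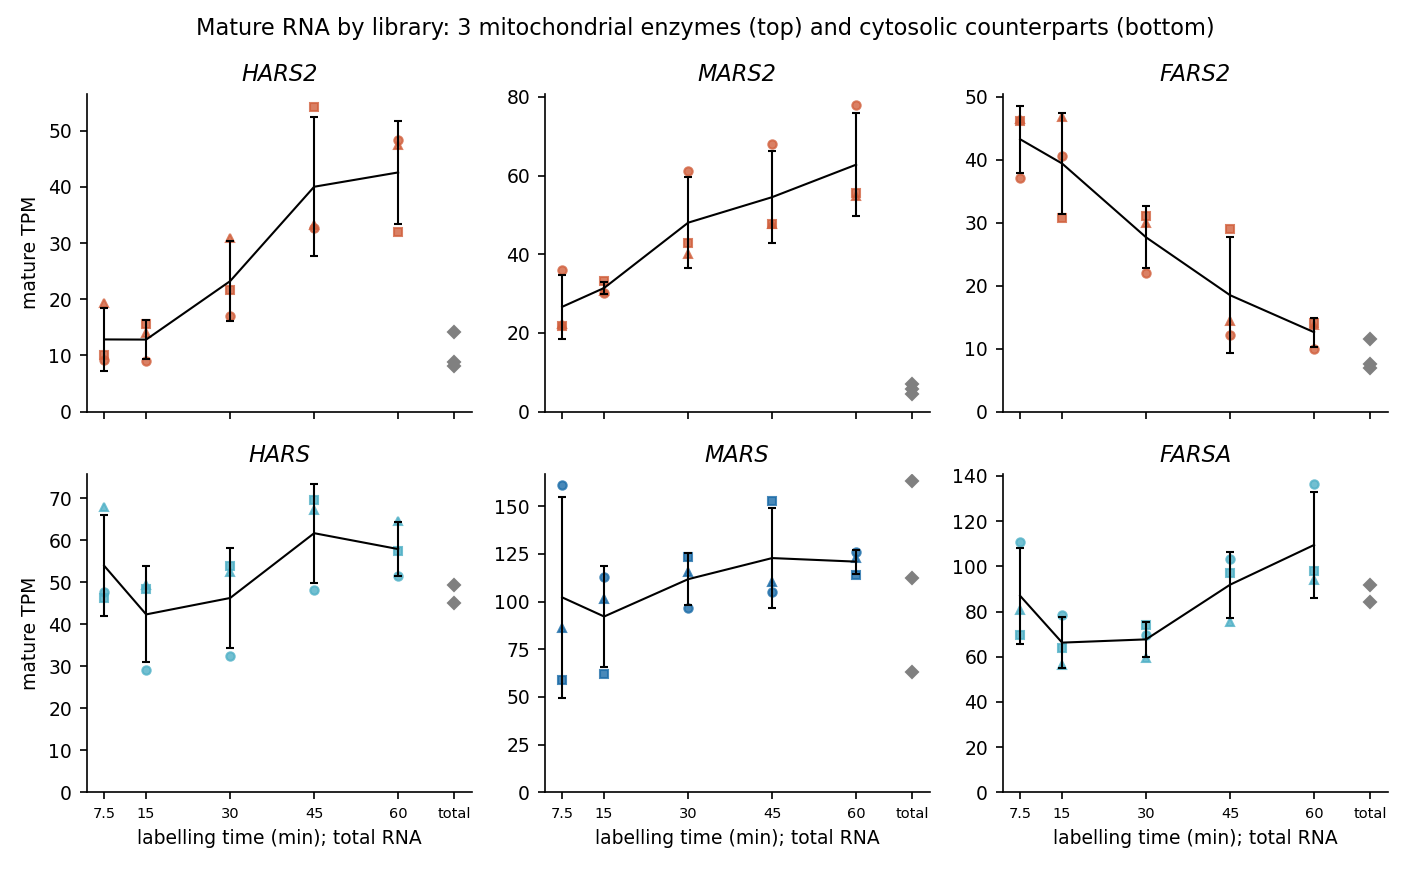
Mature TPM (linear axis) in each library against labelling time, with total RNA at the right, for HARS2, MARS2 and FARS2 (top) and HARS, MARS and FARSA (bottom). Circles, squares and triangles are labelled replicates 1, 2 and 3, grey diamonds are total RNA, and black lines join means with SD bars. HARS2 and MARS2 climb with labelling time to 42.6 and 62.8 TPM at 60 min and stand at 10.3 and 5.72 TPM in total RNA, whereas FARS2 declines from 43.2 to 12.6 TPM.

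The other labelling times were compared with 7.5 min in the same fit. Against 7.5 min, no synthetase passed at 15 or 30 min, where 0.0478% and 8.54% of all genes did. At an unadjusted p under 0.05 in the limma fit, 0 synthetases passed at 15 min and 3 at 30 min (QARS, HARS2 and MARS2). At 45 min, where 17.1% of all genes passed in either direction, HARS2 (1.60) and MARS2 (1.02) were higher and FARS2 (-1.28) and NARS2 (-1.25) lower on the log2 scale. NARS2, the mitochondrial asparaginyl enzyme, stood at 18.9, 9.02 and 21.5 TPM at 45 min against 23.1, 46.6 and 51.3 TPM at 7.5 min. Its lowest value was in 45 min replicate 2, the library with the fewest genes above 0, and without that library its change was -0.89 with a limma adjusted p of 0.103. HARS2, MARS2 and FARS2 passed without it. Over all 5 labelling times, the limma F test called these 3 genes (adjusted p of 0.00292 for HARS2, 0.00979 for MARS2 and 0.00293 for FARS2) and 16.2% of all genes. Under median-ratio scaling and under quantile normalization it called 2 of the 37, and 1995 and 2034 of all 16739 genes, against 2720 with the values as deposited.

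Most members of the multisynthetase complex were among the abundant synthetase RNAs, DARS being the lowest, and none of the complex passed the test. IARS, the isoleucyl enzyme, was the highest of them at 60 min, with 114, 137 and 131 TPM at 7.5 min and 98.3, 146 and 153 TPM at 60 min. EPRS, which joins both glutamate and proline to their tRNAs in a single protein, gave 74.8, 79.3 and 80.6 TPM and then 69.1, 139.6 and 155 TPM. In EPRS 60 min replicate 1 was below every 7.5 min library and the other two 60 min libraries were above them all. The log2 changes were 0.033 (SE 0.311, adjusted p = 0.964) for IARS and 0.54 (SE 0.448, adjusted p = 0.457) for EPRS.

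The same 60 min library was also the low one for LARS, the leucyl enzyme, at 42.4, 117 and 152 TPM, after 65.8, 112 and 117 TPM at 7.5 min. MARS, the methionyl enzyme, averaged 102 ± 52.8 TPM at 7.5 min and 121 ± 6.31 TPM at 60 min (mean ± SD, n = 3). RARS, the arginyl enzyme, averaged 74.03 ± 22.2 TPM at 7.5 min and 81.7 ± 21.4 TPM at 60 min. MARS overlaps DDIT3 and ARHGAP9 on the opposite strand, and its 7.5 min libraries were the most spread of the complex. KARS, the lysyl enzyme, averaged 94.7 ± 7.66 TPM at 7.5 min and 93.2 ± 5.21 TPM at 60 min. QARS, the glutaminyl enzyme, averaged 71.6 ± 12.3 TPM at 7.5 min and 64.8 ± 6.37 TPM at 60 min. DARS, the aspartyl enzyme, averaged 50.9 ± 16.9 TPM at 7.5 min and 52.5 ± 18.2 TPM at 60 min. In these 3 genes the means at the ends of the series differed by less than the SD at 7.5 min.

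Among the cytosolic enzymes outside the complex, TARS, the threonyl enzyme, and NARS, the asparaginyl enzyme, were the most abundant at 60 min. TARS gave 159.7, 130.1 and 113 TPM at 7.5 min and 166, 207 and 248 TPM at 60 min. These groups did not overlap, but the log2 change of 0.62 (SE 0.255, adjusted p = 0.106) did not pass. NARS gave 114, 87.5 and 108 TPM and then 113, 128 and 198 TPM, a log2 change of 0.47 (SE 0.225, adjusted p = 0.168). Its groups overlapped through 60 min replicate 1.

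AARS, the alanyl enzyme, averaged 69.9 ± 17.5 TPM at 7.5 min and 97.5 ± 10.7 TPM at 60 min (mean ± SD, n = 3). YARS, the tyrosyl enzyme, averaged 83.6 ± 25.9 TPM at 7.5 min and 99.01 ± 10.2 TPM at 60 min. FARSA, the catalytic subunit of the phenylalanyl enzyme, averaged 86.97 ± 21.3 TPM at 7.5 min and 109 ± 23.6 TPM at 60 min. None of the 3 genes passed, and the signs of FARSA and YARS turned negative under median-ratio scaling. FARSB, the other phenylalanyl subunit, averaged 52.4 ± 4.41 TPM at 7.5 min and 41.97 ± 7.47 TPM at 60 min. SARS, the seryl enzyme, averaged 76.2 ± 11.4 TPM at 7.5 min and 89.9 ± 5.69 TPM at 60 min. GARS, the glycyl enzyme, averaged 81.6 ± 4.72 TPM at 7.5 min and 77.9 ± 2.47 TPM at 60 min. FARSB and GARS had the lower mean at 60 min, and under median-ratio scaling FARSB passed as lower. WARS, the tryptophanyl enzyme, averaged 69.03 ± 11.4 TPM at 7.5 min and 66.5 ± 2.71 TPM at 60 min. HARS averaged 53.9 ± 12.1 TPM at 7.5 min and 57.9 ± 6.48 TPM at 60 min. TARSL2 averaged 20.6 ± 0.516 TPM at 7.5 min and 25.7 ± 5.07 TPM at 60 min. CARS, the cysteinyl enzyme, and VARS, the valyl enzyme, were the other cytosolic genes at low level. CARS averaged 17.7 ± 3.52 TPM at 7.5 min and 22.7 ± 2.13 TPM at 60 min, and VARS averaged 14.2 ± 5.30 TPM at 7.5 min and 12.9 ± 3.86 TPM at 60 min. VARS and VARS2 both lie in the major histocompatibility complex on chromosome 6, a region with alternative haplotype copies, so their levels are uncertain where reads match more than 1 copy.

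At 60 min the most abundant mitochondrial genes were SARS2, the seryl enzyme, then MARS2, described above, and CARS2, the cysteinyl enzyme. SARS2 gave 91.2, 83.2 and 73.03 TPM at 7.5 min and 106, 103 and 85.2 TPM at 60 min, a log2 change of 0.25 (SE 0.207, adjusted p = 0.467). CARS2 gave 55.2, 44.8 and 67.5 TPM and then 51.2, 54.8 and 63.1 TPM, a log2 change of 0.028 (SE 0.207, adjusted p = 0.952). In both genes the groups overlapped.

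PARS2, the prolyl enzyme, had 11.2, 5.38 and 9.18 TPM at 7.5 min and 28.96, 17.1 and 16.3 TPM at 60 min. Its groups did not overlap, yet the log2 change of 1.19 (SE 0.529, adjusted p = 0.134) did not pass with the spread of all labelling times. With the 6 libraries of the contrast alone, PARS2 passed. EARS2, the glutamyl enzyme, averaged 36.05 ± 2.43 TPM at 7.5 min and 49.1 ± 5.70 TPM at 60 min, and VARS2, the valyl enzyme, 8.87 ± 1.69 TPM at 7.5 min and 14.03 ± 0.693 TPM at 60 min (mean ± SD, n = 3). Neither passed, although in both the groups did not overlap. NARS2 averaged 40.3 ± 15.1 TPM at 7.5 min and 26.8 ± 4.47 TPM at 60 min. LARS2, the leucyl enzyme, averaged 34.6 ± 5.75 TPM at 7.5 min and 30.3 ± 9.72 TPM at 60 min. YARS2, the tyrosyl enzyme, averaged 46.4 ± 6.82 TPM at 7.5 min and 39.1 ± 3.36 TPM at 60 min. The last 3 had the lower mean at 60 min, short of the test.

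For the other 5 mitochondrial genes, as for CARS2, LARS2 and NARS2, the means at 7.5 and 60 min differed by less than the larger of their SDs. IARS2, the isoleucyl enzyme, averaged 49.2 ± 3.29 TPM at 7.5 min and 53.6 ± 14.2 TPM at 60 min. RARS2, the arginyl enzyme, averaged 29.6 ± 10.5 TPM at 7.5 min and 33.7 ± 8.51 TPM at 60 min. AARS2, the alanyl enzyme, averaged 28.9 ± 5.13 TPM at 7.5 min and 33.3 ± 4.73 TPM at 60 min. TARS2, the threonyl enzyme, averaged 33.4 ± 3.76 TPM at 7.5 min and 36.3 ± 4.08 TPM at 60 min. WARS2, the tryptophanyl enzyme, averaged 21.8 ± 7.22 TPM at 7.5 min and 22.8 ± 2.17 TPM at 60 min. The sign of the log2 change in these 5 genes turned negative under median-ratio scaling.

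The genes that work around the synthetases gave 2 of 22 higher, 1 of 22 lower and a median log2 change of 0.27, against 15.8% and 4.21% of all genes. AIMP2, a scaffold of the complex, rose by 0.89, and TRMT10C, a subunit of mitochondrial RNase P that also methylates tRNA, rose by 1.48. HSD17B10, another subunit of the same enzyme, fell by 1.76. The other scaffolds of the complex did not pass, with log2 changes of 0.72 for AIMP1 (adjusted p = 0.299) and -0.31 for EEF1E1 (adjusted p = 0.578). Of the 17 genes of the amino acid response, 7 were higher and 1 lower, with a median of 1.00. ATF4 was among those higher, with 503, 356 and 482 TPM at 7.5 min and 1081, 854 and 853 TPM at 60 min (log2 change 1.06, limma adjusted p = 0.00212). ASNS, the asparagine synthetase gene of the same response, had a log2 change of -0.095 (adjusted p = 0.866), and PHGDH fell by 0.49. The partner and response genes were tested only with TPM as deposited, and their calls under another scaling were not tested. Of the 6 cytosolic synthetases with the TGATGNAA match, AARS, CARS, IARS, MARS, NARS and TARS, none passed in this fit. Their log2 changes ran from 0.033 (IARS) to 0.62 (TARS). With the replicate number as a block AARS and TARS passed as higher, where 3669 of 16739 genes did. HARS2, MARS2 and PARS2, without a match, passed as higher in that fit too. A link between the match and these changes was not tested.

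The next comparison set total RNA, which is mostly older RNA at steady state, against the RNA labelled for 60 min. It shares the 60 min libraries with the comparison above. Only the labelled RNA was drawn out on streptavidin, and what that step adds to the changes was not tested. In total RNA 12 of 16 mitochondrial synthetases were lower than in 60 min labelled RNA, against 2 of 21 cytosolic ones (AARS and TARSL2), and no synthetase was higher. Of all 16580 genes tested, 40.1% were lower and 5.24% higher. The median log2 change was -1.03 for the mitochondrial class, -0.035 for the cytosolic class, -0.075 for the complex within it, and -0.84 for all genes tested. Relative to that all-gene median, 20 of 21 cytosolic genes and 6 of 16 mitochondrial genes were above it. No synthetase with a positive change passed at an unadjusted p under 0.05 either.

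The signs in this comparison depend on how libraries are scaled, and the median of all genes moves from -0.84 to -0.062 under median-ratio scaling and to -0.055 under quantile normalization. With median-ratio scaling 13 synthetases were higher, 11 of them cytosolic, and 2 lower (HARS2 and MARS2), where 17.2% of all genes were higher and 15.2% lower. With quantile normalization 5 were higher (DARS, FARSB, QARS, WARS and RARS2) and the same 2 lower, where 13.7% and 15.1% of all genes were. The cytosolic median stayed above the mitochondrial median under each scaling, by 0.997 as deposited, 1.04 when scaled by median ratios and 0.406 when quantile normalized.

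MARS2, whose level sums mature and primary RNA, showed the largest fall. Total RNA held 6.96, 4.42 and 5.78 TPM, below all 15 labelled libraries, and the log2 change against 60 min was -3.25 (SE 0.269, adjusted p = 1.99e-07). PARS2 held 6.06, 3.73 and 3.48 TPM in total RNA, a log2 change of -1.99 (SE 0.504, adjusted p = 0.00373). HARS2 held 14.2, 8.10 and 8.80 TPM, a log2 change of -1.96 (SE 0.342, adjusted p = 0.00017). In all 3 genes each total library was below each 60 min library. FARS2, which had fallen during labelling, stood at 11.6, 6.89 and 7.53 TPM in total RNA, and its change of -0.51 (SE 0.311, adjusted p = 0.191) did not pass.

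IARS2 and RARS2 stood apart from the other mitochondrial genes, and were singled out after their values were seen. IARS2 had 37.3, 60.7 and 62.8 TPM at 60 min and 64.7, 43.3 and 45.5 TPM in total RNA, a log2 change of -0.052 (SE 0.286, adjusted p = 0.9). RARS2 had 27.00, 30.8 and 43.3 TPM at 60 min and 64.6, 44.7 and 35.5 TPM in total RNA, a log2 change of 0.49 (SE 0.386, adjusted p = 0.312). In both genes the groups overlapped. On the cytosolic side AARS had 72.7, 53.8 and 51.1 TPM in total RNA, below its 60 min libraries, with a log2 change of -0.72 (SE 0.275, adjusted p = 0.0397). TARSL2 had 17.3, 13.2 and 9.35 TPM, also below them, with a log2 change of -0.93 (SE 0.297, adjusted p = 0.0168). Without 60 min replicate 2, 60 min replicate 3 or total replicate 3, neither AARS nor TARSL2 passed, and 9, 8 and 8 mitochondrial genes did. In those runs 5443 of 16593, 5384 of 16599 and 4784 of 16672 genes were lower. Without total replicate 2, 8 mitochondrial genes and TARSL2 passed, where 5502 of 16637 genes were lower.

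**Figure D2:**
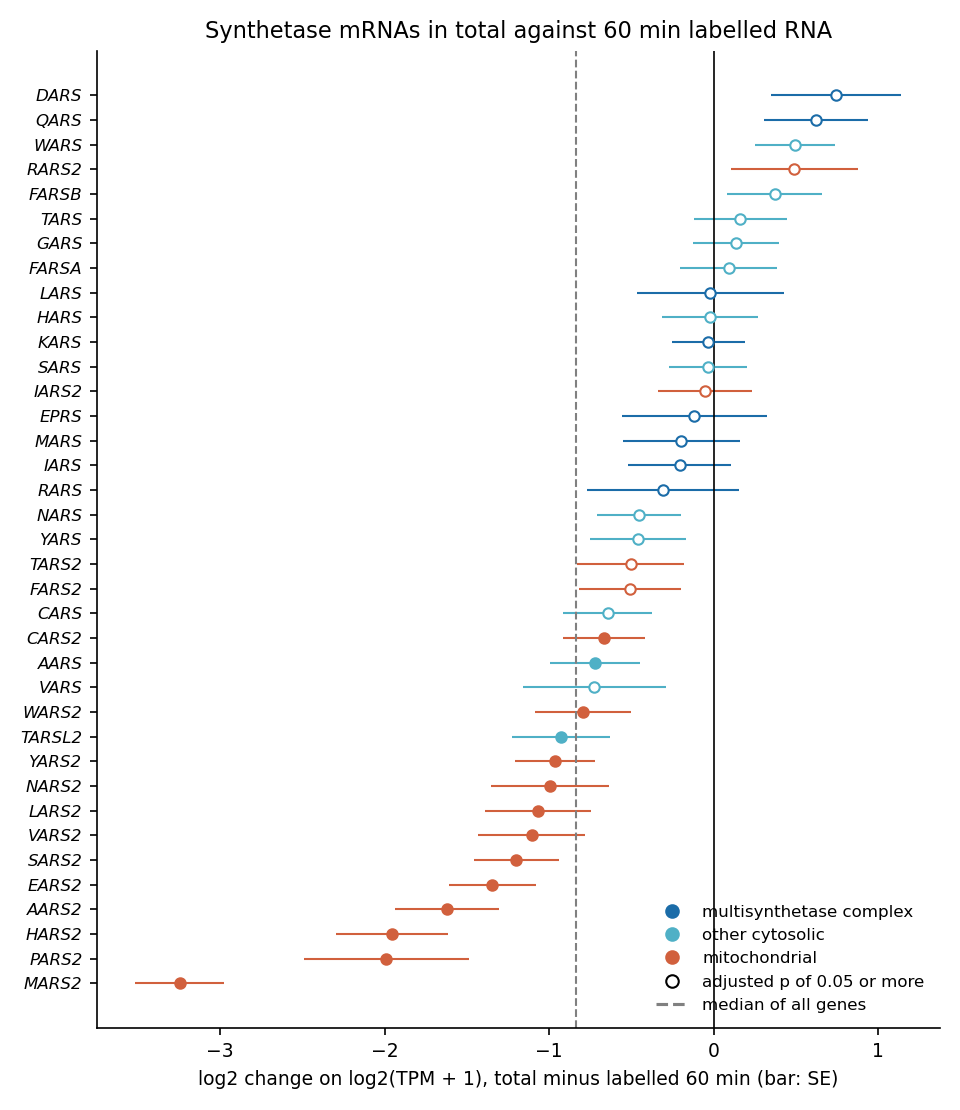
Log2 change on the log2(TPM + 1) scale, total minus labelled 60 min, for each of the 37 genes, ordered by value, with SE bars; filled points have a limma adjusted p under 0.05. Blue points, the cytosolic classes, lie mostly near 0 and to the right of the dashed median of all genes at -0.84, and orange mitochondrial points reach down to -3.25 for MARS2.

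Of the 22 partner genes, 2 were higher in total than in 60 min labelled RNA (HSD17B10 and EEF1A1, the elongation factor that carries charged tRNA to the ribosome) and 7 lower, with a median log2 change of -0.51, where 5.24% of all genes were higher and 40.1% lower, with a median of -0.84. Of the 17 amino acid response genes none was higher and 7 were lower, ATF4 among them, with a median of -1.004, and 7 of 17 is close to the 40.1% of all genes. At an unadjusted p under 0.05, ASNS of that list had a positive change (0.71, limma adjusted p = 0.0645). Here too both lists were tested only with TPM as deposited.

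A share within the synthetases does not depend on a library's scale. The mitochondrial genes made up 28.7%, 25.4% and 23.7% of the summed synthetase TPM in the 60 min libraries and 15.8%, 13.8% and 17.0% in the total libraries. All 3 total libraries were below all 15 labelled libraries. The summed mature level of the 21 cytosolic genes was 1825 ± 257 TPM at 60 min and 1801 ± 496 TPM in total RNA, and that of the 16 mitochondrial genes was 632 ± 9.03 and 329.9 ± 93.4 TPM (SD, n = 3).

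Set side by side for each amino acid, there were 17 pairs of a cytosolic and a mitochondrial gene, in which EPRS and FARS2 each appear in 2 pairs. The cytosolic gene was above its mitochondrial counterpart without overlap in 14 of 17 pairs in total RNA and in 14 of 17 at 60 min. CARS and CARS2 were in the opposite order without overlap in total RNA. CARS had 18.6, 12.6 and 11.99 TPM there and CARS2 49.9, 29.9 and 28.8 TPM. VARS was above VARS2 in only 1 of 3 libraries of total RNA and in 1 of 3 at 60 min. The change from 60 min labelled to total RNA was more negative for the mitochondrial gene in 15 of 17 pairs, the exceptions being IARS with IARS2 and RARS with RARS2. This is a count of signs: the median difference was -0.88, but CARS2 differed from CARS by only -0.019. For SARS and SARS2 the labelled levels overlapped, at 96.4, 87.2 and 85.95 TPM for SARS and 106, 103 and 85.2 TPM for SARS2 at 60 min. Their total levels did not, at 122, 72.5 and 75.6 TPM for SARS and 61.9, 35.1 and 33.8 TPM for SARS2.

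The authors' deposited rates, fitted with INSPEcT from these labelling data, rank the genes on the same axis and are not independent of the TPM above. The scores are centred and run close to log10 units (slope 0.956 for synthesis and 0.951 for degradation against log10 of the linear rates of 4163 genes). The degradation score was below the median of all 15120 genes (-0.042) in 21 of 21 cytosolic genes, with a class median of -0.43. Of the mitochondrial genes 7 were below and 9 above, with a median of -0.024. The synthesis score had a median of 0.70 in the cytosolic and 0.37 in the mitochondrial class, against 0.12 in all genes. These values carry no replicate error, since the authors used the labelling times as pseudo-replicates.

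MARS2 had the highest degradation score of the 37, 0.39, followed by AARS2 at 0.28 and PARS2 at 0.15. QARS had the lowest, -0.65, followed by WARS at -0.62 and DARS at -0.61. IARS2 (-0.43) and RARS2 (-0.39) lay within the range of the complex, which ran from -0.65 to -0.32. TARSL2 (-0.055), VARS (-0.10) and CARS (-0.21) were the highest of the cytosolic class. The mitochondrial gene had the higher degradation score in 15 of 17 pairs and the lower synthesis score in 15 of 17. The median degradation difference was 0.41, but CARS2 exceeded CARS by only 0.066 and VARS2 exceeded VARS by only 0.071. TARS had the highest synthesis score, 1.03, and VARS2 the lowest, -0.027.

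**Figure D3:**
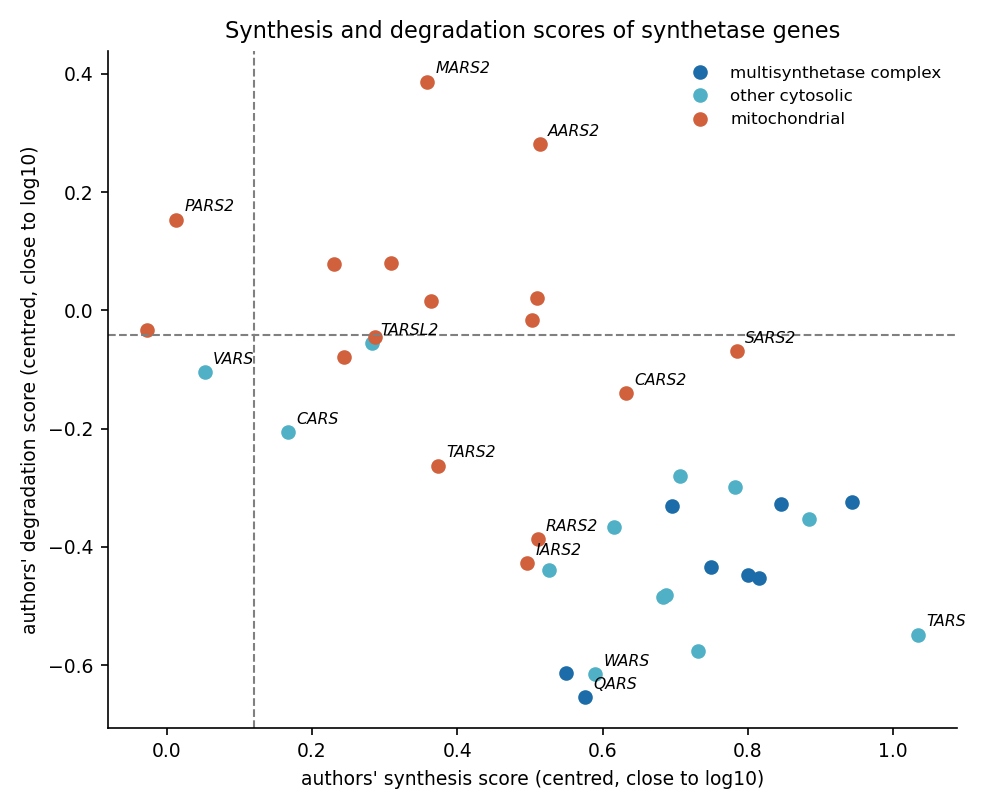
The authors' degradation score against their synthesis score for the 37 genes (both centred and close to log10 units, without error bars); dashed lines are the medians of all 15120 genes. Cytosolic genes sit at the lower right, with TARSL2, VARS and CARS nearest the medians, and mitochondrial genes spread upward to MARS2 at 0.39, with IARS2 and RARS2 among the cytosolic points.

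The classes also differed in copies per cell and in the authors' measures of translation. The authors' estimate of copies per cell, from spiked-in standards, had a median of 17.6 for cytosolic and 2.74 for mitochondrial genes, against 1.94 over 14196 genes. TARS was the highest with 45.4 copies and PARS2 the lowest with 0.910. The estimates depend on the library: the cytosolic median was 9.99 copies with oligo-dT, 32.8 with RNase H and 15.0 with Ribo-Zero, and the mitochondrial median 1.65, 5.35 and 2.59. The cytosolic class was the higher in all 3. Translational potential, a log10 score of ribosome footprints with codon periodicity, had a median of 2.70 for cytosolic and 1.31 for mitochondrial genes, against 0.44 for all genes, and was lower in the mitochondrial gene of 16 of 17 pairs. The log2 ratio of polyribosomal to cytosolic RNA had medians of -0.31 and -0.074, against -0.046 for all genes, and 19 of 21 cytosolic genes were below the all-gene value. This ratio was thus the lower in the cytosolic class, opposite to translational potential. Whether the classes differ in translation apart from abundance was not tested.

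The authors grouped all genes into 7 clusters on these same measures. Their cluster c1 held 18 of 21 cytosolic genes and 3 of 16 mitochondrial genes (CARS2, IARS2 and SARS2), against 13.7% of all genes. CARS, VARS and TARSL2 were the cytosolic genes outside it. The other mitochondrial genes fell into c2 (6) and c3 (7). The clusters were made from the same rates and ratios and are not independent of them.

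Primary transcripts, the unspliced precursors, made up less of the labelled RNA after longer labelling. Of the 36 synthetases with introns, 32 had a lower primary level at 60 than at 7.5 min and none a higher one (limma; also 0 at an unadjusted p under 0.05), where 59.4% of 20010 genes were lower and 0.610% higher. The median log2 change was -1.53 for the synthetases and -1.18 for all genes tested. FARSA, QARS, VARS and PARS2 did not pass. NARS2, FARS2 and DARS fell most, by 2.52, 2.46 and 2.36 on the log2(TPM + 0.1) scale. Scaling moves these counts also: median-ratio scaling gave 7 higher and 11 lower (14.8% and 15.7% of all genes), and quantile normalization 8 and 12 (12.3% and 17.4%).

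The ratio of primary to mature RNA within each library does not depend on a library's scale, apart from the 0.1 TPM added to each. It was lower at 60 min in 30 of 36 synthetases and higher in none (limma; also 0 at an unadjusted p under 0.05), where 64.1% of 13879 genes differed, 62.9% being lower and 1.21% higher. The median log2 change was -1.76, beside -1.81 for all genes. EPRS, HARS2 and TARS changed most. EPRS had 24.4, 22.4 and 23.2% of its TPM unspliced at 7.5 min and 4.44, 3.31 and 4.23% at 60 min, a log2 change in the ratio of -2.85 (SE 0.295, adjusted p = 2.41e-06). HARS2 had 66.3, 62.1 and 50.1% and then 13.5, 19.5 and 18.4%, a log2 change of -2.84 (SE 0.370, adjusted p = 1.40e-05). TARS had 30.5, 32.2 and 37.4% and then 6.45, 8.21 and 7.94%, a log2 change of -2.62 (SE 0.215, adjusted p = 5.83e-07). In each of the 3 genes the groups were far apart.

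AARS2, FARS2, FARSA, PARS2, QARS and VARS did not pass on the ratio, of which AARS2, FARSA and PARS2 passed with the replicate number as a block. QARS had 6.17, 9.19 and 6.65% unspliced at 7.5 min, 29.8, 13.04 and 15.4% at 30 min and 10.3, 8.40 and 6.70% at 60 min. AARS2 had 52.6, 41.4 and 50.7%, 62.1, 46.7 and 52.7% and 38.7, 34.4 and 38.2% at the same times. QARS was low at 7.5 min, and AARS2 was the higher of both genes in every library at these times. When the ratio was centred on the median of all genes in each library, 9 synthetases were higher and 4 lower (EPRS, NARS, TARS and HARS2), where 13.1% and 15.3% of all genes were.

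By class, the median unspliced share at 7.5 min was 26.7% ± 2.93 for cytosolic and 35.9% ± 1.89 for mitochondrial genes, against 38.9% ± 0.474 for all 13878 genes (SD, n = 3). At 60 min it was 9.79% ± 1.60, 16.1% ± 4.40 and 14.8% ± 3.07, and in total RNA 0.905% ± 0.253, 2.70% ± 1.25 and 2.60% ± 0.641. The cytosolic median was below the mitochondrial median in every one of the 18 libraries. Within the cytosolic class the complex was the lower part. At 15 min the complex had 21.0% ± 1.72 and the other cytosolic genes 33.0% ± 0.779, beside 34.5% ± 5.93 for mitochondrial genes. In 15 min replicate 1 the other cytosolic genes were above the mitochondrial ones (32.6% and 29.6%). At 60 min the complex had 8.58% and the other cytosolic genes 11.1%.

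**Figure D4:**
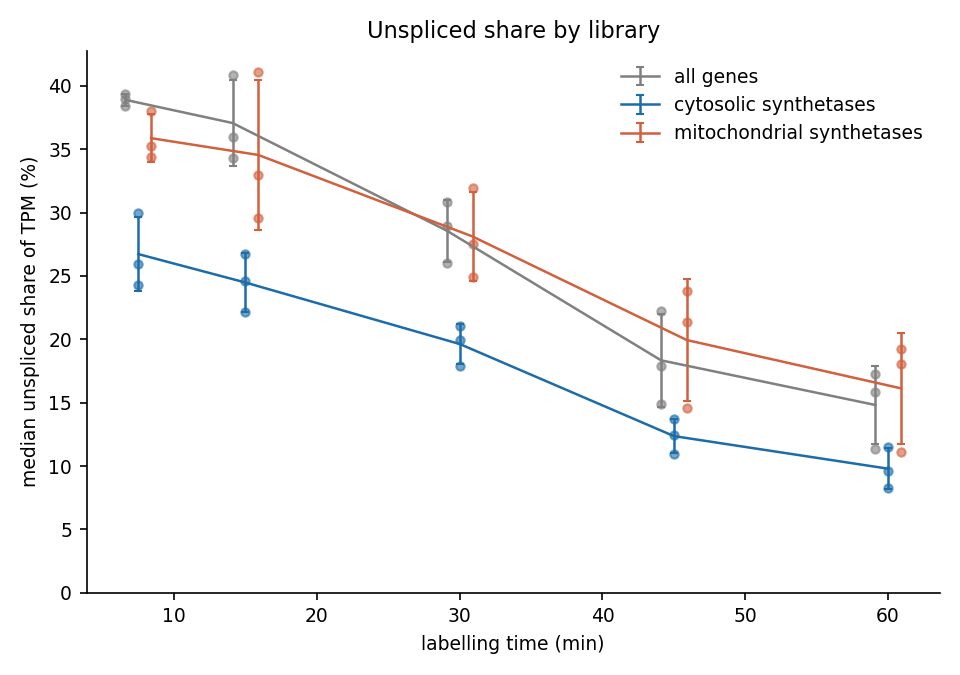
Median unspliced share of TPM (%) against labelling time (min) for the 21 cytosolic genes, the 15 mitochondrial genes with introns and all 13878 genes. Points are libraries and lines join means with SD bars; points are shifted slightly sideways. The cytosolic line runs below the others throughout, from 26.7% at 7.5 min to 9.79% at 60 min.

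Introns were also measured singly in the authors' table, as the share of reads at an intron's ends that show it excised. It holds 275 introns of 28 synthetases, 231 in 19 cytosolic and 44 in 9 mitochondrial genes, out of 21782 introns in all. Introns of 1 gene share their source and the authors give no replicate values. The median excised share at 60 min was 84.8% for cytosolic introns, 85.5% for those of the complex and 75.7% for mitochondrial introns, against 84.4% over all. Above the all-intron median were 120 of 231 cytosolic and 9 of 44 mitochondrial introns. The authors' slow class held 29.5% of mitochondrial, 19.5% of cytosolic and 17.7% of all introns.

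AARS2 and SARS2, singled out after their values were seen, were the lowest of the 28 genes. Their 14 introns had a median of 56.3%, and 10 of them were in the slow class. Without them the other 30 mitochondrial introns had a median of 80.7%, and 3 were in the slow class. The lowest of the 275 introns was the 85-base intron of SARS2 at chr19:39408649-39408733 (hg19), on the minus strand. Its excised share was 38.6% at the shortest labelling time, 15.2% after 30 min and 21.2% after 60 min. An AARS2 intron of 236 bases at chr6:44272555-44272790 (hg19) was the next lowest, with 37.9% at 7.5 min and 34.4% at 60 min. SARS2 overlaps AC011455.2 on its own strand and MRPS12 on the other, and the part of reads from these genes was not tested. EPRS had the highest gene median, 92.3% over 20 introns, and IARS2 with 87.2% over 11 introns was the highest mitochondrial gene. The introns of AARS2 and SARS2 were short and GC-rich, with medians of 235.5 bases and 57.3% GC, where all introns had 1424 bases and 41.4%.

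**Figure D5:**
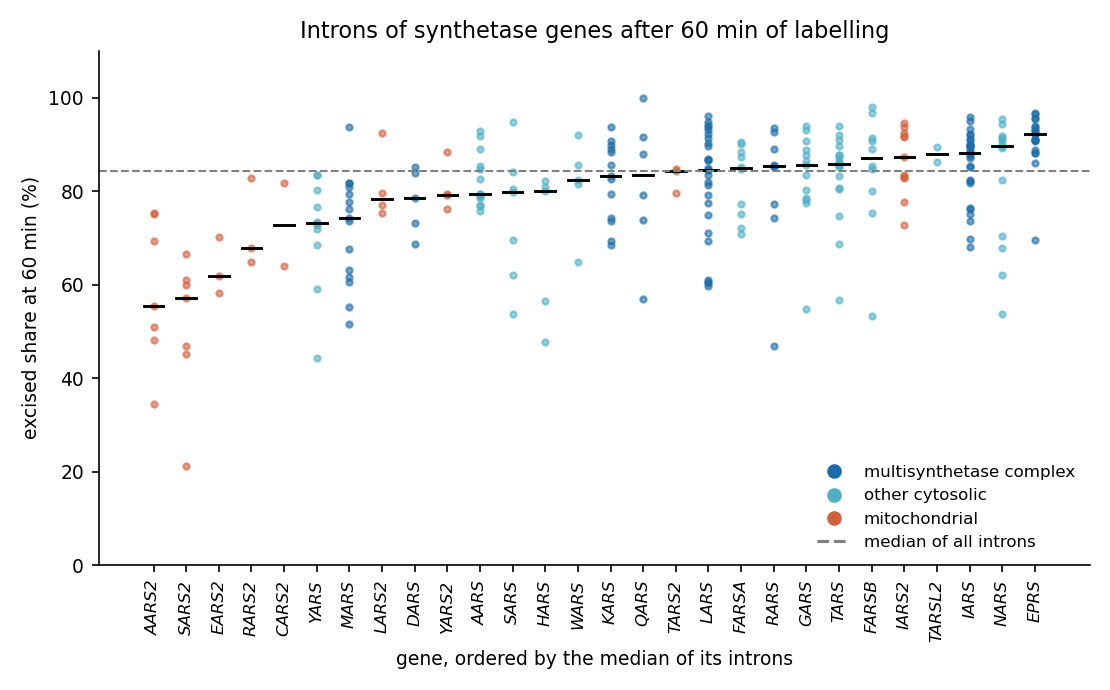
Excised share at 60 min (%) of each of the 275 introns in 28 genes, ordered by gene median (black bars); the dashed line is the median of all introns, 84.4%. AARS2 and SARS2 stand at the left with medians of 55.5% and 57.2%, no intron of either reaches the dashed line, and EPRS stands at the right.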

How the data were processed

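RNA of HEK293 cells was measured in 15 libraries of 4-thiouridine labelled RNA and 3 of total RNA. The authors deposited TPM for mature and primary transcripts, from RSEM 1.2.11 with Bowtie 1.0.1 on hg19, per the submitters' processing notes; a primary isoform spanning the full locus was added to each gene, per the file headers. The intron table holds the authors' fraction of excised reads for introns with more than 5 reads, averaged over replicates and printed here as a percentage. The deposited rates are centred scores from INSPEcT, copies per cell are log10 values scaled to spike-in standards, the polyribosomal to cytosolic ratio is a log2 value, and translational potential is a centred score on a log10 scale, per the file headers. Intronless genes have processing rates imputed by the authors.

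Groups came from the sample labels. Mature levels were tested with limma 3.58.1 (R 4.3.3, empirical Bayes with trend) on log2(TPM + 1) for genes with a mean of at least 1 TPM, primary levels on log2(TPM + 0.1) for a mean of at least 0.1, and their ratio with 0.1 added to each. This scale understates changes of low genes. The contrasts of labelled RNA used all 15 labelled libraries, and total against 60 min used all 18. P-values were adjusted by Benjamini-Hochberg over all genes tested, with a threshold of 0.05. The limma fit of mature levels at 60 against 7.5 min was tested on simulated data, and the other fits were not. Alternatives were other pseudocounts, filters and scalings, each library left out, and a replicate block. Members and gene lists were chosen with earlier results of these data known. Genes named in full were those past the threshold and the 2 most abundant of each class at 60 min, with CARS2 (the next after SARS2 and MARS2) in addition and up to 3 of the largest changes per direction in the other comparisons; all members are given for 60 against 7.5 min.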

Additional observations from a re-analysis of the deposited data

How the results depend on the processing

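Most of the changes below came with another scaling of the libraries, and their cause was not tested. For mature RNA at 60 against 7.5 min, median-ratio scaling gave 1 synthetase higher and 2 lower. The same scaling turned the log2 changes to -0.29 for DARS, -0.0092 for FARSA, -0.23 for HARS, -0.31 for IARS, -0.20 for RARS, -0.10 for SARS, -0.040 for TARSL2, -0.061 for YARS, -0.13 for AARS2, -0.31 for CARS2, -0.25 for IARS2, -0.13 for RARS2, -0.10 for SARS2, -0.22 for TARS2 and -0.21 for WARS2. Quantile normalization gave -0.23 for DARS, -0.16 for HARS, -0.18 for IARS, -0.10 for RARS, -0.015 for SARS, -0.036 for TARSL2, -0.11 for AARS2, -0.24 for CARS2, -0.19 for IARS2, -0.11 for RARS2, -0.19 for TARS2 and -0.21 for WARS2. Rescaling TPM over mature transcripts alone gave -0.19 for DARS, -0.12 for HARS, -0.20 for IARS, -0.094 for RARS, -0.025 for AARS2, -0.21 for CARS2, -0.15 for IARS2, -0.026 for RARS2, -0.12 for TARS2 and -0.11 for WARS2. None of these genes passed with the values as deposited.

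For total against labelled 60 min RNA, median-ratio scaling gave 13 higher and 2 lower, and log2 changes of 0.28 for AARS, 0.029 for TARSL2 and 0.94 for IARS2. Quantile normalization gave 5 higher and 2 lower, 0.036 for TARSL2 and 0.56 for IARS2, and a difference between the class medians of 0.406. Primary transcripts gave 7 higher and 11 lower with median-ratio scaling and 8 higher and 12 lower with quantile normalization. The ratio of primary to mature RNA, centred on all genes, gave 9 higher and 4 lower.

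With 1 library left out at a time, 0 to 1 synthetases were higher and 8 to 16 lower in total RNA than at 60 min. The 16 came without total replicate 1, where 7165 of all 16620 genes tested were lower. Without total replicate 3, 8 were lower, where 4784 of 16672 genes were lower and 910 higher. The single gene higher was WARS, without total replicate 3. Leaving out 1 library took the 60 against 7.5 min log2 change across 0 for DARS (-0.25 to 0.29), IARS (-0.084 to 0.23), KARS (-0.066 to 0.042), LARS (-0.43 to 0.48), RARS (-0.0038 to 0.37), VARS (-0.38 to 0.15), WARS (-0.12 to 0.088), CARS2 (-0.12 to 0.17), IARS2 (-0.045 to 0.32), LARS2 (-0.45 to 0.016) and WARS2 (-0.18 to 0.29). It did the same for IARS2 in total against 60 min RNA (-0.29 to 0.079). HARS2, MARS2 and FARS2 passed at 60 min without any of the 6 libraries in turn.

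Replicate numbers of the labelled groups are not stated to mark a shared culture, and the deviations of same-numbered libraries at 7.5 and 60 min correlated at 0.273, 0.0835 and 0.0893. With the replicate block, 5 synthetases were higher at 60 min (AARS, TARS, HARS2, MARS2 and PARS2) and FARS2 was lower. Of all 16739 genes, 3669 were then higher and 1090 lower, against 2653 and 705 without the block. Over the 5 labelling times the block called 9 synthetases and 4473 of all genes, against 2720 of all genes without it. The block gave 33 lower primary to mature ratios, with AARS2, FARSA and PARS2 added, where 9023 of 13879 genes were lower. It gave 32 lower primary transcripts, where 12770 of 20010 genes were lower. Over the 5 labelling times median-ratio scaling and quantile normalization each called 2 synthetases, and 1995 and 2034 of 16739 genes. The runs without 45 min replicate 2 in the other comparisons, and without AARS2 and SARS2 for introns, were chosen after seeing the data. TPM carry no depth, so no limit of detection is given for low genes such as VARS2 and PARS2.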
